A study of Homo sapiens with 8 samples.

Results

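The transcription factor HSF1 and 9 genes of its chaperone network were followed through RNA-seq of multiple myeloma (MM) cell lines. The 10 genes were taken by symbol (HSF1, HSPA1A, HSPA1B, HSPA8, HSP90AA1, HSP90AB1, HSPH1, DNAJB1, HSPD1 and HSPE1), matched to Ensembl identifiers through the names in a deposited table, and make up 10 of 63677 genes counted. Where a symbol had several identifiers, the one with the highest count was used, and the other identifiers of HSF1, HSPA1A and HSPA1B had no read in any library. The cells were labelled as the MM lines JJN3 and H929 and cultured in RPMI-1640 medium with serum and antibiotics. By their labels they were given either the vehicle DMSO or THZ1, a covalent inhibitor of the transcriptional kinase CDK7, at 50 nM for 24 h. Each of the 4 groups had 2 libraries of single-end reads, 8 in all, and every gene value below is a count of uniquely mapped reads. The labels do not say that replicates were separate cultures, so the p-values measure the spread between these libraries, which may be technical.

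HSF1 is held inactive in unstressed cells by the chaperones that it controls, and on proteotoxic stress it forms trimers that bind heat shock elements, inverted repeats of a short unit ahead of chaperone genes. HSP70 proteins bind exposed hydrophobic stretches of unfolded clients under the control of J-domain partners and nucleotide exchange factors, HSP90 matures kinases and receptors at a later step, and HSP60 with its lid HSP10 folds proteins in the mitochondrial matrix. Plasma cells make and export large amounts of immunoglobulin, and MM cells are known for a heavy demand on protein folding and degradation.

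Libraries held 17476443 to 19194371 counts each, so that a floor of 3 counts corresponded to 0.156 to 0.172 CPM, where CPM scales a count by the library total. The plasma cell markers were present under all labels, with 8 of 8 above 1 CPM in each group, and summed to 3846 to 4333 CPM in JJN3, 3365 to 3622 under the H929 DMSO label and 11715 to 11725 under the H929 THZ1 label, and the B cell, myeloid, erythroid and stromal lists summed to 4.44 CPM or less in every library. The T cell list summed to 35.05 to 35.88 CPM in the libraries labelled H929 THZ1, against 4.41 CPM or less in all others, and this was CD3E alone (34.72 and 35.55 CPM), with CD3D at 0 and CD2 at 0.33 CPM in both libraries. The libraries labelled H929 did not form a pair of conditions that differed by treatment alone: of the counts on immunoglobulin light chain variable genes, the lambda share was 99.99% and 97.96% under the H929 DMSO label and 0.203% and 0.194% under the H929 THZ1 label, against 0.244% to 0.369% in JJN3. Across 13310 genes, log2 CPM correlated at 0.746 to 0.776 between the H929 labels and at 0.962 to 0.969 between the JJN3 conditions. Differences between the H929 labels are therefore given as differences between labels, in which treatment and the source of the cells cannot be told apart, and JJN3 is the line in which the response to THZ1 was read.

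The DNA ahead of the chaperone genes is shown first, because the heat shock element is the sequence by which HSF1 recognises them. RefSeq promoter windows (GRCh38.p14, 250 bases before to 50 after each start) were searched for GAANNTTC and TTCNNGAA. Each is its own reverse complement, so that both strands were covered, and pairs that shared a unit were joined into a longer element. HSF1 had no entry, and the other 9 genes had 15 windows. A pair of units was present in 13.5% of all 35116 windows, and at least 3 units in register in 0.490%; over all windows of a gene, 16.2% of 27305 genes held a pair and 0.608% held 3 units. Of the 9 genes, 4 held at least 3 units in one of their windows (HSPA8, HSP90AA1, HSP90AB1 and HSPD1), 3 held pairs only (HSPA1A, HSPA1B and DNAJB1), and HSPH1 and HSPE1 held none. As the 9 genes were chosen as chaperones of the HSF1 network, setting them beside the shares of all genes is not a test. The search took exact units only, so units with a changed base were not counted. A gene without a match may therefore still hold an imperfect element. In the following stretches, read 5′ to 3′ on the strand of the gene, capitals mark the element and up to 6 flanking bases stand on each side. For each gene, the elements before the start in the window that holds the most are shown, so that a further DNAJB1 pair, at the start of another transcript, is left out.
HSPA8, 230 bases before the start: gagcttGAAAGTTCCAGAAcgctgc
HSPA8, 55 bases before the start: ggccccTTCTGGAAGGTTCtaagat
HSP90AA1, 88 bases before the start: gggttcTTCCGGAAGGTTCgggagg
HSP90AA1, 68 bases before the start: ggaggcTTCTGGAAaaagcg
HSP90AB1, 165 bases before the start: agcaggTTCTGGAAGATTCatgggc
HSP90AB1, 112 bases before the start: agattgTTCTGGAAGCTTCtggatt
HSPD1, 245 bases before the start: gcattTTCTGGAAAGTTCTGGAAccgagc
HSPA1A, 106 bases before the start: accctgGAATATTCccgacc
HSPA1B, 105 bases before the start: cccctgGAATATTCccgacc
DNAJB1, 77 bases before the start: ggggcgGAAGGTTCtggagg
DNAJB1, 47 bases before the start: gctctgGAAGCTTCcgccgg

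Each stretch matched 1 place on the strand of the gene in its own chromosome of GRCh37, the build of the counts. Other chromosomes and the opposite strand were not searched. The HSPA8 stretches lie at chr11:122933056-122933080 and chr11:122932881-122932905 on the minus strand, in annotated exons of HSPA8 transcripts that begin further upstream. Those of HSP90AA1 lie at chr14:102553451-102553475 and chr14:102553436-102553455 on the minus strand, and those of HSP90AB1 at chr6:44215509-44215533 and chr6:44215562-44215586 on the plus strand. Both HSP90 pairs fall inside the gene body but in no annotated exon, ahead of an internal start. The element of HSPD1, with 4 units, lies at chr2:198364786-198364814 on the minus strand between the divergent starts of HSPD1 and HSPE1, in an annotated exon of longer HSPD1 transcripts, and its first base is 294 bases ahead of the HSPE1 start, outside the window searched for that gene. HSPA1A (chr6:31783208-31783227) and HSPA1B (chr6:31795404-31795423) carry the same pair on the plus strand, upstream of each gene, and 235 of the 250 bases before their starts were identical (94.0%). The DNAJB1 pairs lie at chr19:14629273-14629292 and chr19:14629243-14629262 on the minus strand, inside DNAJB1 and the overlapping gene TECR but outside annotated exons. Such matches describe letters in a window and say nothing on whether HSF1 bound there in these cells.

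The level of these genes in untreated cells spanned a wide range. The 10 genes took 1.43% and 1.45% of all counts in the JJN3 DMSO libraries, and 0.892% and 0.868% after THZ1. The libraries labelled H929 DMSO gave 1.22% and 1.23% to them, and those labelled H929 THZ1 0.574% and 0.566%. By mean CPM in JJN3 DMSO, HSPA8 ranked 2 and HSP90AB1 ranked 6 of 23446 genes with counts, and HSP90AA1 ranked 16, while HSF1 ranked 1411, HSPA1B 2110, HSPE1 3272 and HSPA1A 9611. Per kilobase of the canonical transcript, the level in JJN3 DMSO ran from 2582 ± 96.1 CPM per kb for HSPA8 (SD, n = 2), through HSP90AB1 at 1545 ± 19.7, HSP90AA1 at 716 ± 30.3 and HSPD1 at 343 ± 8.48, to HSF1 at 75.4 ± 3.47, HSPA1B at 46.3 ± 2.00 and HSPA1A at 2.61 ± 1.01. DNAJB1 at 144 ± 2.70, HSPE1 at 137 ± 9.68 and HSPH1 at 121 ± 2.76 CPM per kb stood between HSPD1 and HSF1, and DNAJB1 and HSPE1 were neighbours whose levels differed by less than the SD of HSPE1.

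Unique mapping of 50-base reads bears on several of these levels. Of the 50-base windows of the canonical transcript, 75.1% in HSPA1A and 71.6% in HSPA1B occurred again elsewhere in the genome, 1766 windows in each gene, so that reads from those stretches were not counted. The share was 41.3% in HSPD1, 37.2% in HSPE1, 24.6% in HSP90AA1, 23.2% in HSPA8 and 22.5% in HSP90AB1, and 4.29% or less in DNAJB1, HSPH1 and HSF1. HSPE1 also shares 192 exonic bases on its own strand with the readthrough gene HSPE1-MOB4, which had no count in any library, HSPA1B shares 920 on its own strand (36.6% of its transcript) with ENSG00000285565, a non-coding gene of the newer annotation, and HSF1 shares 137 with DGAT1 on the other strand, while whether the counting used strand is not given in the sources used here. Levels of the genes with repeated windows are therefore lower limits, and HSPA1A and HSPA1B are uncertain as separate genes.

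In JJN3, 6 of the 10 genes fell with THZ1, none rose, and 4 did not pass the test. HSPA8, HSPA1A, HSPE1, DNAJB1, HSPD1 and HSP90AA1 fell, while HSF1, HSPA1B, HSP90AB1 and HSPH1 did not pass. Genes were called at an adjusted p under 0.05 (edgeR quasi-likelihood test, Benjamini-Hochberg over all 13984 genes tested) and a log2 fold change beyond 0.5, and all 10 genes passed the filter on low counts. Upward, HSPA1B alone of the 10 had an unadjusted p under 0.05 (0.0462), and DESeq2 likewise called 0 of the 10 higher. Across all genes tested, 21.3% were called lower and 20.6% higher. The median log2 fold change was -0.77 over the 10 genes and -4e-04 over all genes. In bulk RNA, fewer cells with a transcript and less of it per cell cannot be told apart, and the values are relative to the rest of each library. Scaled CPM in the comparisons within a line carry the TMM factors of that line's fit, and those over the 4 groups, with the plot of levels, the factors of the fit of all 8 libraries, so that the same library has slightly different values in the 2 settings.

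**Figure D1:**
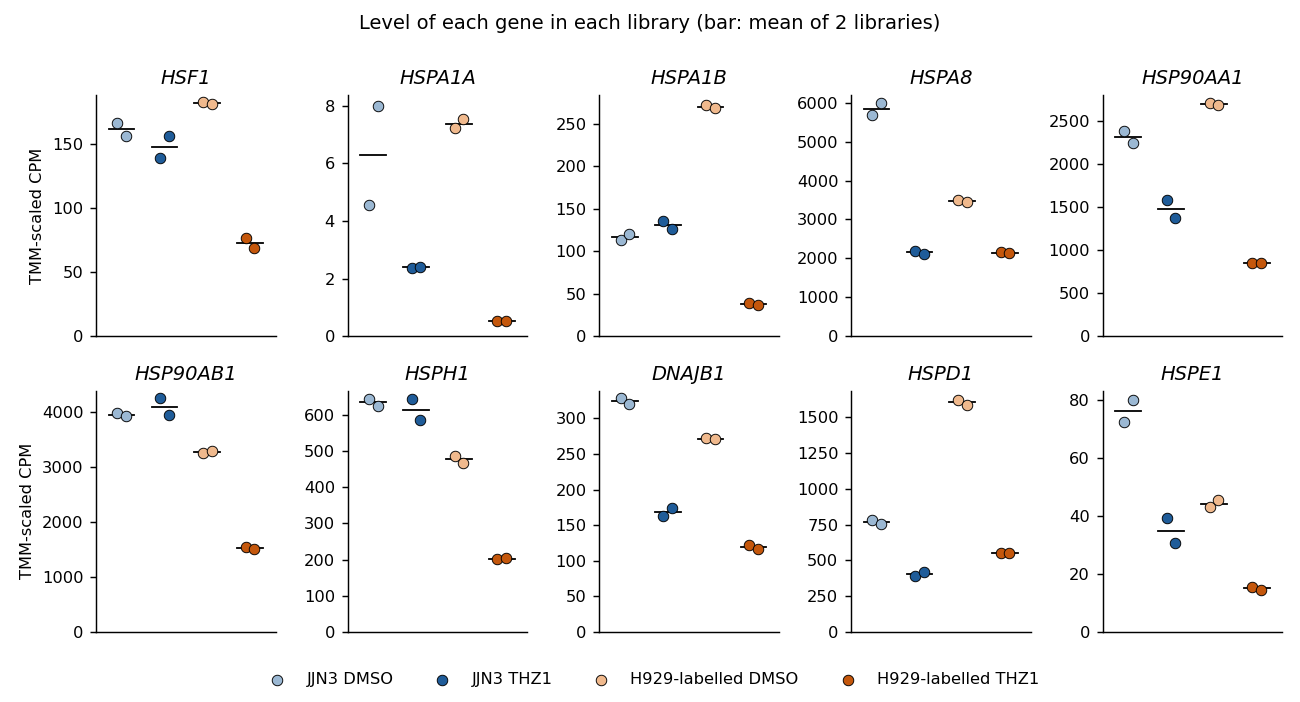
Level of each of the 10 genes in each library, in CPM scaled by the TMM factors of the fit of all 8 libraries, on axes that start at 0; points are libraries and bars the mean of 2. HSPA8 sits at 5693 and 6000.5 in JJN3 DMSO and between 2121 and 2199 in JJN3 THZ1 and in the libraries labelled H929 THZ1, while HSP90AB1 stays between 3912 and 4243 in all 4 JJN3 libraries.

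HSF1, the master regulator of the heat shock response, gave 3212 and 3040 counts in JJN3 DMSO and 2269 and 2806 after THZ1, or 163 and 153 against 137 and 155 in scaled CPM. The scaled values of the 2 groups overlapped, with the first THZ1 library lowest. The log2 fold change was -0.11 (SE 0.087, adjusted p = 0.289, edgeR quasi-likelihood test), with a 95% interval of -0.30 to 0.08.

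Among the HSP70 genes, HSPA8 (HSC70, the constitutive cytosolic HSP70) had the lowest log2 fold change of the 10 in JJN3, next to HSPA1A. Its scaled CPM was 5565 and 5896 in JJN3 DMSO and 2174 and 2103 in JJN3 THZ1. The groups were far apart, and the fall was 2.68-fold (log2 fold change -1.42, SE 0.121, adjusted p = 4.20e-06, edgeR quasi-likelihood test), rank 294 from the lowest of 13984 genes. From rank 2 in JJN3 DMSO by mean CPM, HSPA8 moved to rank 29 after THZ1.

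HSPA1A and HSPA1B, the paired stress-inducible HSP70 genes that carry the same element, gave different values. HSPA1A gave 88 and 156 counts in JJN3 DMSO and 39 and 43 after THZ1, a log2 fold change of -1.38 (SE 0.290, adjusted p = 0.00183, edgeR quasi-likelihood test). The groups did not overlap, but the DMSO libraries differed widely, and without the second DMSO library the log2 fold change was -0.93 (adjusted p = 0.0265, same edgeR test). HSPA1B gave 2181 and 2342 counts in JJN3 DMSO and 2218 and 2265 after THZ1, with a log2 fold change of 0.18 (SE 0.081, 95% interval 0.00 to 0.36, adjusted p = 0.0738, edgeR quasi-likelihood test). The raw counts overlapped and the scaled CPM did not (110.3 and 118 against 134 and 125), and HSPA1B did not pass. HSPA1B counts were 24.8 and 15.0 times those of HSPA1A in JJN3 DMSO and 56.9 and 52.7 times after THZ1.

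HSPH1 (HSP110, a nucleotide exchange factor for HSP70) and DNAJB1 (HSP40, the J-domain partner that delivers clients to HSP70) also differed from each other. HSPH1 stood at 629.7 and 613 scaled CPM in JJN3 DMSO and at 636 and 579.8 in JJN3 THZ1, which overlapped, with a log2 fold change of -0.03 (SE 0.094, 95% interval -0.24 to 0.17, adjusted p = 0.793, edgeR quasi-likelihood test). DNAJB1 stood at 321 and 314 in JJN3 DMSO and at 161 and 173 in JJN3 THZ1, a 1.90-fold fall (log2 fold change -0.93, SE 0.082, adjusted p = 5.44e-06, same edgeR test). The groups of DNAJB1 were well apart. Within a library, HSPA8 counts were 8.84 and 9.62 times those of HSPH1 in JJN3 DMSO and 3.42 and 3.63 times after THZ1. The ratio of their RNA counts was thus lower in both THZ1 libraries, and protein was not measured.

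The cytosolic HSP90 genes parted. HSP90AA1, the stress-inducible HSP90 alpha, stood at 2327 and 2203 scaled CPM in JJN3 DMSO and at 1563 and 1364 in JJN3 THZ1. It fell by 0.63 on the log2 scale (SE 0.115, 95% interval -0.88 to -0.38, adjusted p = 0.000712, edgeR quasi-likelihood test), and the groups did not overlap. HSP90AB1, the constitutive HSP90 beta, stood at 3894 and 3844 in JJN3 DMSO and at 4196 and 3898 in JJN3 THZ1, with a log2 fold change of 0.06 (SE 0.119, 95% interval -0.20 to 0.33, adjusted p = 0.661, same edgeR test) that turned to -0.04 when libraries were scaled by total counts, a scaling that moved the median of all genes to -0.10. The lower THZ1 library of HSP90AB1 lay just above the DMSO libraries. The intervals of the 2 paralogs did not overlap. HSP90AB1 counts were 1.67 and 1.74 times those of HSP90AA1 in JJN3 DMSO and 2.68 and 2.86 times after THZ1. Both paralogs hold an element of 3 units in a window ahead of an internal start, as printed above.

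The mitochondrial pair fell together. HSPD1 (HSP60, the chaperonin of the matrix) stood at 766 and 743 scaled CPM in JJN3 DMSO and at 389 and 413 in JJN3 THZ1, a 1.88-fold fall (log2 fold change -0.91, SE 0.091, adjusted p = 1.16e-05, edgeR quasi-likelihood test). HSPE1 (HSP10, its co-chaperonin), transcribed the other way from the shared region, stood at 70.8 and 78.7 in JJN3 DMSO and at 38.8 and 30.3 in JJN3 THZ1, a 2.17-fold fall (log2 fold change -1.12, SE 0.115, adjusted p = 1.40e-05, same edgeR test). For both genes the DMSO libraries were above both THZ1 libraries. The ratio of HSPD1 to HSPE1 counts was 10.8 and 9.44 in JJN3 DMSO and 10.0 and 13.6 after THZ1, and these ranges overlapped.

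**Figure D2:**
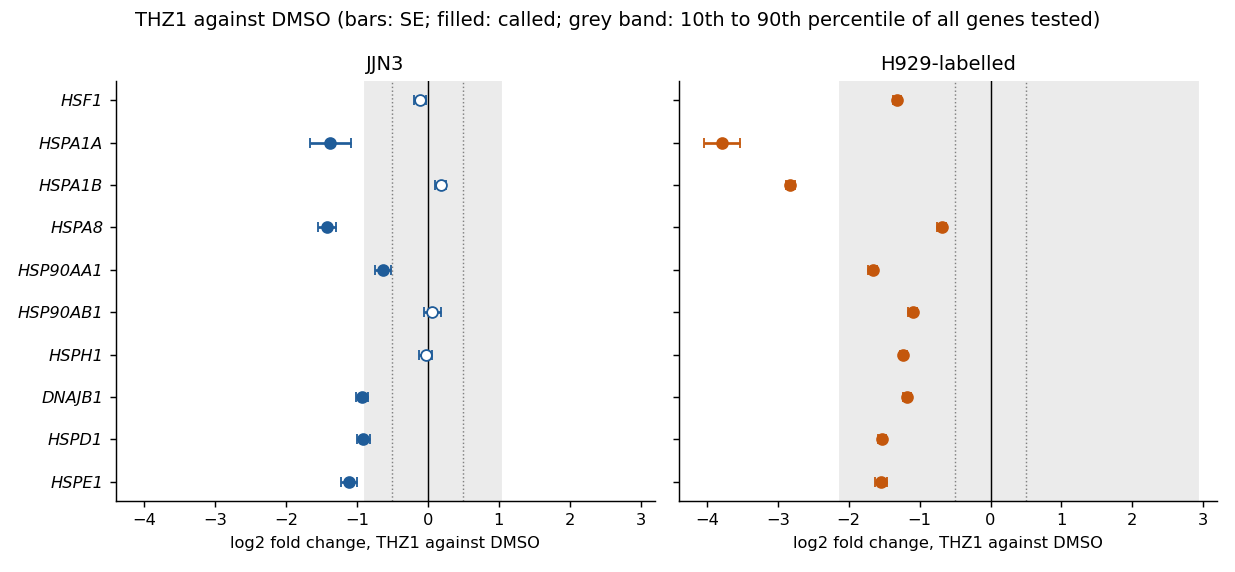
Log2 fold change of each gene with THZ1 against DMSO in JJN3 and between the H929 labels (points; bars are SE, filled points are called, dotted lines mark 0.5 either way, and the grey band spans the 10th to 90th percentile of all genes tested). In JJN3, 6 points are filled and HSPA8 is lowest at -1.42; between the H929 labels all 10 are filled and HSPA1A is lowest at -3.78.

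Between the H929 labels, all 10 genes were lower in the libraries labelled THZ1, where 32.6% of 14863 genes tested were lower and 33.1% higher. Their median log2 fold change was -1.42, against 0.01 over all genes. The inducible HSP70 genes differed the most. HSPA1B had 5051 and 4840 counts under DMSO and 738 and 706 under THZ1, a log2 fold change of -2.82 (SE 0.058, adjusted p = 8.50e-16, edgeR quasi-likelihood test), and HSPA1A had 134 and 136 against 10 and 10, a log2 fold change of -3.78 (SE 0.257, adjusted p = 1.17e-09, same edgeR test). HSF1 itself had 3384 and 3264 counts against 1452 and 1303, a log2 fold change of -1.32 (SE 0.060, adjusted p = 7.42e-12, same edgeR test). The groups did not overlap for any of these genes.

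The other chaperones were lower by 1.61 to 3.17-fold between the H929 labels. HSPA8 had the smallest difference, with a log2 fold change of -0.69 (SE 0.062), from 3537 and 3497 to 2193 and 2168 scaled CPM. HSP90AA1 differed by -1.66 (SE 0.062), HSPE1 by -1.55 (SE 0.087) and HSPD1 by -1.53 (SE 0.058) on the log2 scale. HSPH1 differed by -1.23 (SE 0.053), DNAJB1 by -1.18 (SE 0.052) and HSP90AB1 by -1.10 (SE 0.062). In each case the adjusted p was 3.73e-08 or lower (edgeR quasi-likelihood test). The light chain content, the summed plasma cell markers and CD3E differed between these labels too, and their part in the result was not tested.

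The difference in response was tested gene by gene as the interaction of line label and treatment label over all 8 libraries. Of 16122 genes, 28.1% were called lower and 25.5% higher. For 7 of the 10 genes the log2 fold change was higher in JJN3, that is, less negative or near 0, and for HSPA8 it was lower. The difference was 2.99 for HSPA1B (SE 0.101, adjusted p = 1.25e-12, edgeR quasi-likelihood test) and 1.196 for HSF1 (SE 0.110, adjusted p = 9.58e-08, same edgeR test), and -0.74 for HSPA8 (SE 0.108, adjusted p = 1.69e-05, same edgeR test). DNAJB1 (0.24, 95% interval 0.04 to 0.44) and HSPE1 (0.42, 95% interval 0.10 to 0.75) did not pass the limit of 0.5. As the H929 labels differ in more than treatment, the test is one between a treatment effect and a difference between labels.

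**Figure D3:**
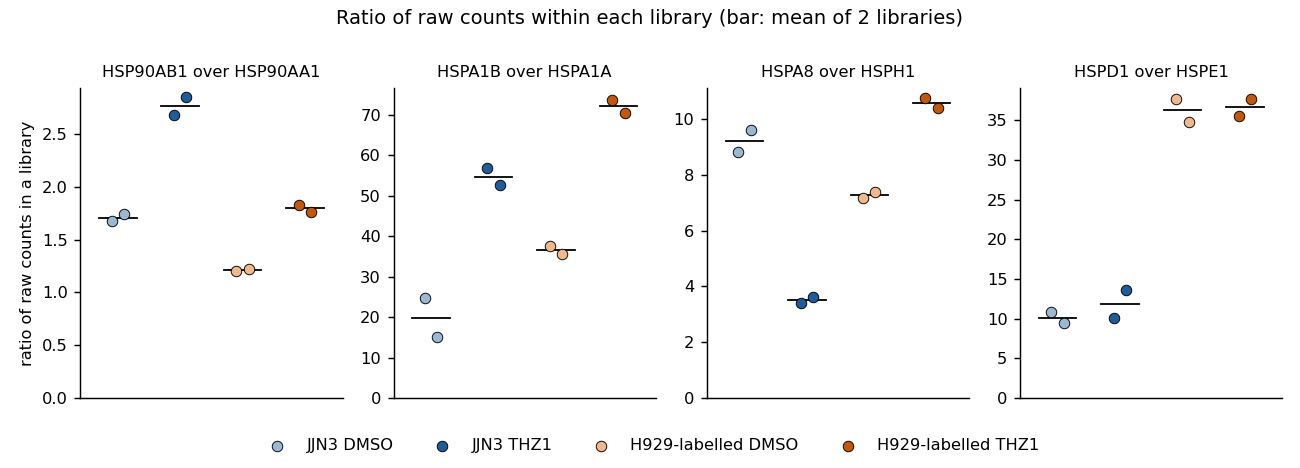
Ratio of raw counts within each library for 4 pairs of chaperone genes (points are libraries, bars the mean of 2, axes start at 0). The HSP90AB1 to HSP90AA1 ratio is higher under both THZ1 labels, at 2.68 and 2.86 in JJN3 and 1.83 and 1.77 under H929. HSPA8 over HSPH1 moves down in JJN3 and up between the H929 labels. HSPD1 over HSPE1 is set apart by line label, at 9.44 to 13.6 in JJN3 and 34.8 to 37.7 under H929.

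Levels under the same treatment label also differed between the JJN3 libraries and those labelled H929. The source of the cells labelled H929 is not settled, so these are differences between labels. Under DMSO, 2 of the 10 genes were lower in JJN3 than in the libraries labelled H929 and 2 were higher, where 30.8% and 30.7% of 16122 genes tested were called lower and higher. HSPA1B was lower at 113 and 119.997 scaled CPM against 272 and 268 (log2 fold change -1.21, SE 0.069), and HSPD1 at 783 and 756 against 1624 and 1585 (log2 fold change -1.06, SE 0.072). HSPA8 was higher by 0.75 on the log2 scale (SE 0.076) and HSPE1 by 0.78 (SE 0.099), so that the members of the mitochondrial pair were unequal in opposite directions. The other 6 were not called, although 9 of the 10 genes had an adjusted p under 0.05 (edgeR quasi-likelihood test). Among the 6 were HSF1 and HSPA1A, with log2 fold changes of -0.17 (95% interval -0.33 to -0.01) and -0.23 (95% interval -0.70 to 0.23). For HSPA1A the value was -0.68, called lower, without the second JJN3 DMSO library and 0.13 without the first.

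Under THZ1, 7 of the 10 genes were higher in JJN3 and none was lower (edgeR quasi-likelihood test; HSPD1 had a log2 fold change of -0.45 at an adjusted p of 3.02e-05, below the limit of 0.5), where 31.6% of all genes were lower and 32.3% higher. HSF1 stood at 139 and 156 scaled CPM in JJN3 and at 76.3 and 68.8 under the H929 label (log2 fold change 1.02, SE 0.079). HSPH1 differed by 1.5997 (SE 0.074), HSPA1B by 1.78 (SE 0.075) and HSP90AB1 by 1.42 (SE 0.079). HSPA8 did not differ beyond its spread, with a log2 fold change of 0.01 (95% interval -0.15 to 0.17), as the plot of levels shows.

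Over the 4 groups, HSF1 was highest under the H929 DMSO label and lowest under the H929 THZ1 label, with the JJN3 groups between them, and neither the 2 DMSO groups nor the 2 JJN3 groups differed by enough to be called. Among the patterns most like that of HSF1 over the 8 libraries, among 8958 genes whose log2 CPM averaged 3 or more, were those of CEP68 and GATAD2A, with root mean square differences of centred log2 CPM of 0.0792 and 0.0832. The nearest of the other 9 genes was HSP90AB1 at 0.247, rank 277. HSP90AB1 and HSPH1 were nearest to each other at 0.101, where HSP90AB1 ranked 4 among the genes nearest to HSPH1 and HSPH1 ranked 10 among those nearest to HSP90AB1. These are descriptions over 8 libraries that share their 4 groups.

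A wider set of 150 genes in 9 lists placed these changes within the chaperone system. In JJN3, 135 of them were tested, 30 were lower and 16 higher (22.2% lower, against 21.3% of all genes), with a median log2 fold change of -0.16. The mitochondrial chaperones and proteases had 6 of 15 lower and 9 that did not pass, and the cytosolic chaperonin TRiC with prefoldin had 5 of 15 lower and 1 higher (CCT6B, 0.55, a call lost under several settings). HTRA2, a protease of the intermembrane space, fell by 1.25 on the log2 scale, OMA1, a protease of the inner membrane, by 1.18, and DNAJA3, the J-domain partner of mitochondrial HSP70, by 1.03. PFDN6, a prefoldin subunit, fell by 1.29, and the TRiC subunits CCT3 and CCT2 by 0.83 and 0.77. HSPA9, the mitochondrial HSP70, and TRAP1, the mitochondrial HSP90, had log2 fold changes of -0.48 and -0.42 and did not pass the limit.

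Partners of HSP90 and HSP70 moved both ways in JJN3, at shares near those of all genes tested (21.3% lower and 20.6% higher). The share called lower was 23.8% for HSP90 relatives and co-chaperones, 25% for exchange factors and partners, and 26.8% for J-domain proteins. Of 21 HSP90 relatives and co-chaperones, 5 were lower and 4 higher. FKBP4, a cochaperone of steroid receptors, fell by 1.26 on the log2 scale, STIP1 (HOP), which hands clients from HSP70 to HSP90, by 0.83, and NUDC by 0.75. FKBP8, a membrane-anchored member of the same family as FKBP4, rose by 0.84, CDC37, the kinase cochaperone, by 0.76, AHSA2 by 0.70, and HSP90B1, the HSP90 of the endoplasmic reticulum, by 0.52, a call that was lost under several settings. Among 12 exchange factors and partners, 3 were lower, HSPBP1 (-0.79), GRPEL1 (-0.56) and BAG2 (-0.51, a call lost under several settings), and BAG3, an HSF1-induced partner of HSP70, rose by 0.62 (1149 and 1098 counts to 1440 and 1574). J-domain proteins had 11 of 41 lower and 5 higher, with DNAJC30 (-1.12) and DNAJA4 (-0.998) among those that fell and DNAJC3 (1.19), a protein of the endoplasmic reticulum, DNAJC25 (0.87) and DNAJC4 (0.83) among those that rose.

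The remaining lists changed little in number. HSP70 relatives had 1 of 12 lower (HSPA14, -0.62) and 3 higher, HSPA2 (0.68) and HYOU1 (0.66) among them. HSPA5, the HSP70 of the endoplasmic reticulum, stood at -0.34 (adjusted p = 0.0097, edgeR quasi-likelihood test) and missed only the limit of 0.5. The strictly inducible HSPA6 gave 10 to 20 counts in the JJN3 libraries, with a log2 fold change of -0.37 (SE 0.395) that did not pass. Of 10 tested genes of the HSF family and HSF1 regulators, 1 was called (HSBP1L1, higher by 1.49, named after its value was seen), and HSF2 stood at 0.31. In the list of small heat shock proteins, 3 genes were tested, HSPB1 at 0.33, HSPB11 at -0.38 and HSPBAP1 at -0.45. They missed only the limit of 0.5, with adjusted p of 0.0229, 0.00486 and 0.00745 (edgeR quasi-likelihood test). HSPB11 and HSPBAP1 were listed by their symbols, and only HSPB1 is counted here as a small heat shock protein. Of 12 stress-induced targets listed apart from the chaperone families, HMOX1, which degrades heme, rose by 1.83. SERPINH1 (HSP47), which is in that list although it is the collagen chaperone, and MRPL18 fell by 1.003 and 0.71.

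**Figure D4:**
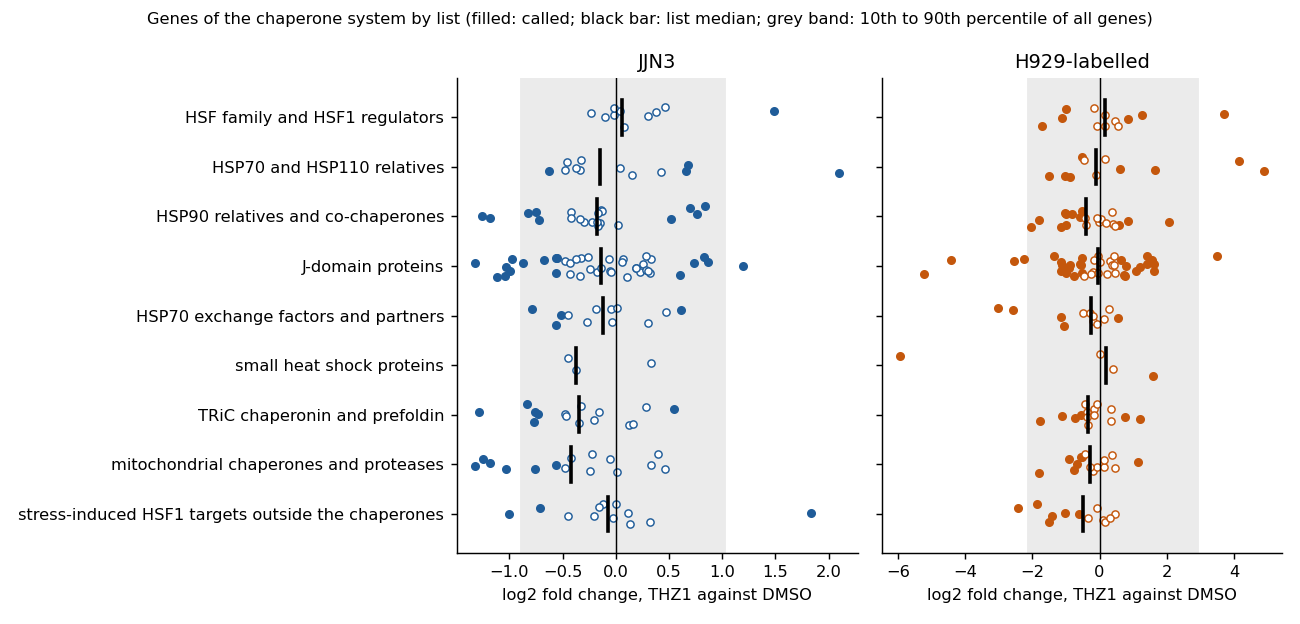
Log2 fold change of the genes tested in each of 9 lists with THZ1 against DMSO in JJN3 and between the H929 labels (points are genes, filled where called; black bars are list medians; the grey band spans the 10th to 90th percentile of all genes). List medians in JJN3 lie between -0.42 and 0.06, closer to 0 than the median of -0.77 over the 10 genes.

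Between the H929 labels, 49 of 137 list genes tested were lower and 27 higher (35.8% lower, against 32.6% of all genes), with a median of -0.16. HSPB1 (HSP27) gave 19352 and 18976 counts under DMSO and 328 and 315 under THZ1, a log2 fold change of -5.94, and DNAJC12 and BAG2 differed by -5.23 and -3.03. Of the stress-induced targets, 6 of 12 were lower and 6 did not pass, with IER5 at -2.42 and SQSTM1, an autophagy receptor, at -1.85. HMOX1 was lower there, with a log2 fold change of -1.499, opposite in sign to JJN3. Among the genes that were higher, DNAJC1 and DNAJB9, J-domain proteins of the endoplasmic reticulum, differed by 3.49 and 1.63, AHSA2 by 2.06, HSPA13 by 1.64, FBXW7, which marks proteins for degradation, by 1.25, PFDN4 by 1.198, CLPB, a mitochondrial disaggregase, by 1.16, HSBP1 by 0.84, CDC37L1 by 0.85, HYOU1 by 0.61 and SIL1 by 0.54. The other genes named by the rule were lower, with DNAJC15 at -2.55, HSPBP1 at -2.56, NUDC at -2.03, TRAP1 at -1.79, TCP1 at -1.78, TRIM28 at -1.71, PFDN6 at -1.13, EEF1A1 at -1.12, HSPA5 at -1.04, DNAJA3 at -0.91 and HSPA4 at -0.87. Both contrasts showed STIP1 lower, by 0.83 in JJN3 and 1.003 between the H929 labels, and DNAJC3 higher, by 1.19 and 1.57. Other list genes were also called the same way in both, such as NUDC, HSPBP1, DNAJA3 and PFDN6 lower and AHSA2 and HYOU1 higher. FKBP8 and DNAJC4, like HMOX1, were higher in JJN3 and lower between the H929 labels. The share of all genes called the same way in both contrasts is not given here.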

How the data were processed

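RNA-seq of 8 libraries was analysed from the counts that the authors deposited, 1 table per line. The authors aligned reads to hg19 with STAR 2.5.2a, kept uniquely mapping reads, and counted them per Ensembl gene with featureCounts, without normalization. Tables of the authors' DESeq2 1.12.4 comparisons (fold changes and p-values) were not used, except the gene symbols in the JJN3 table. Counts were tested with edgeR 4.0.16 in R 4.3.3 (TMM, filterByExpr, quasi-likelihood test, Benjamini-Hochberg over all genes tested), on code tested on simulated data. Tests were run within each line label, and over all 8 libraries for the interaction and for contrasts between line labels. Alternatives were DESeq2 1.42.0, other scalings, filters, fold limits, a replicate block, summed identifiers, 1 fit of 8 libraries and leaving out each library. Named list genes had the largest changes per list at an average log2 CPM of at least 3 (3 each way in JJN3, 2 between the H929 labels), plus a few always given; 1 gene that the rule for patterns like that of HSF1 names is not reported here. Transcript lengths, overlaps and repeated 50-base windows came from GENCODE on GRCh37, newer than the counting annotation. The members and lists were chosen with earlier results of these data known. The depth, 17476443 to 19194371 counts, sets counting precision only. With 2 libraries a group, no rank test could pass.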

Additional observations from a re-analysis of the deposited data

Results flagged for a closer look

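The change with THZ1 in JJN3 was called different from the difference between the H929 labels for 8 of the 10 genes. The call took an adjusted p under 0.05 in a test of the interaction and a difference beyond 0.5 (edgeR quasi-likelihood test, Benjamini-Hochberg). All 10 genes had an adjusted p under 0.05. Of 16122 genes tested, 28.1% were called lower and 25.5% higher. The log2 fold change was higher in JJN3 by 2.99 for HSPA1B, by 2.40 for HSPA1A, by 1.196 for HSF1, by 1.19 for HSPH1, by 1.15 for HSP90AB1, by 1.02 for HSP90AA1 and by 0.61 for HSPD1. For HSPA8 the difference was -0.74. Treatment and the source of the cells cannot be told apart between the H929 labels.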

How the results depend on the processing

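The count of 6 lower genes in JJN3 held in all alternatives but a limit of 1 on the log2 fold change, which left 3, and it was 6 without each library in turn. That limit left 0 genes lower in the interaction and 0 higher in JJN3 under DMSO. With no limit on the fold change, 4 genes were lower and 5 higher in JJN3 under DMSO, and 1 was lower under THZ1, as with total counts (1). The same limit of 1 gave 1006 lower and 1397 higher of all genes in JJN3, against 2972 and 2877, 3146 lower between the H929 labels, against 4847, and 10 lower and 4 higher list genes in JJN3, which were 55 and 31 with no limit. Total counts gave 3639 lower and 2353 higher genes in JJN3.

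The replicate numbers did not pair the libraries (correlation of deviations 0.01 in JJN3 and -0.06 under H929), and the replicate block left 6 lower genes in JJN3 and 10 between the H929 labels. It gave 3013 lower and 2889 higher of all genes in JJN3.

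Changes of sign concerned values that were not called. HSPA8 between the THZ1 labels was -0.0117 with DESeq2, -0.1044 with total counts, -0.0388 with no filter, -0.0033 with 1 CPM in 2 libraries and -0.0040 with the replicate block, and between -0.0515 and 0.0295 without each library in turn. HSP90AB1 in JJN3 was -0.0391 with total counts. Without each library in turn, HSPH1 in JJN3 ran from -0.1025 to 0.0373, HSPA1A between the DMSO labels from -0.6822 (called, without the second JJN3 DMSO library) to 0.1256, and, of the list genes in JJN3, HSBP1 from -0.0715 to 0.1210, DNAJB9 from -0.1725 to 0.0574, DNAJC15 from -0.2399 to 0.1360 and IER5 from -0.1312 to 0.0687. HSBP1 was -0.0681 with total counts and -0.0045 with no filter, and CDC37 between the H929 labels was 0.0216 with total counts and between -0.0725 and 0.0346 without each library in turn. The causes were not tested.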

Other observations

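Of the 150 list genes, 15 were not tested in JJN3 because of low counts. Among them were the small heat shock proteins CRYAA, CRYAB, HSPB2, HSPB3, HSPB6, HSPB7, HSPB8 and HSPB9. HSPB1 was the one abundant small heat shock protein, with 1623 to 1943 counts in the JJN3 libraries. Heat shock elements of at least 3 units were found in the RefSeq windows of 5 of 122 list genes (HSPA6, CHORDC1, DNAJA1, DNAJB6 and SERPINH1), against 0.608% of the 27305 genes with a window. The lists were chosen as chaperone and heat shock genes, with stress-induced HSF1 targets among them, so setting these shares side by side is not a test. In JJN3, DNAJA1 (-0.56) and SERPINH1 (-1.003) were lower, and HSPA6 (-0.37), CHORDC1 (-0.18) and DNAJB6 (0.06) did not pass. A match describes letters in a window only.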
